A study of Mus musculus with 8 samples.

Results

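The neuron library was compared with cortex and hippocampus, 3 of the 8 mouse libraries of the series, to ask which neuronal transcripts an isolated preparation kept and which it did not. All 3 came from mice of strain C57, with no genotype or treatment given, and each group held 1 library, so differences have no replicate check and p-values are not given. The neuron sample was taken from brain, and the sources used here give neither the region nor the way the cells were isolated or kept, nor age or sex. RNA was read as TPM, a level of transcripts scaled by their length and to a common total. Of 29713 genes, 10560 were tested because they reached 10 TPM in neuron or in both tissues. They were set beside 36 gene lists with 893 distinct genes, among them 19 neuronal lists, 9 lists of glia, vessels, blood and dividing cells, and 7 lists of states such as growth, activity, stress and metabolism. The list of immature neurons was counted with the states, so its genes enter no count over the neuronal lists unless they stand on one of those too.

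Neurons send signals through an axon, whose terminals release transmitter from synaptic vesicles, and receive them on dendrites, where receptors are held by a postsynaptic scaffold. Sodium, calcium and potassium channels set their firing. Forebrain tissue holds these cells among astrocytes, which clear transmitter, oligodendrocytes, which make myelin, microglia, which are the resident phagocytes, and vessels with blood. A neuron that is growing an axon makes much tubulin and several growth proteins that a mature neuron makes less of. In bulk RNA, fewer cells of a type and less RNA per cell cannot be told apart.

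The 3 libraries differed in depth and in make-up. Total expected counts, the reads assigned to genes, were 3983575 in neuron, 5369399 in cortex and 3686772 in hippocampus, at which 3 counts on a transcript of 2000 bases are worth 0.485, 0.656 and 0.943 TPM. Ribosomal protein genes took 17.6% of TPM in neuron against 5.45% and 5.56% in the tissues. The mean effective length behind a count, effective length being the part of a transcript a fragment can start in, was 2488 bases in neuron against 3740.0 and 3730.0 bases. Across tested genes, Spearman's rho of TPM was 0.645 between neuron and cortex, 0.627 between neuron and hippocampus and 0.949 between the tissues. Over the 431 tested genes of the neuronal lists it was 0.786, 0.768 and 0.891. These rho values describe genes, which are not replicates.

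All pan-neuronal markers were present in the neuron library, genes of the neuronal lists ran from level with tissue to far below it, and genes of other cells were mostly lower. A gene was called higher in neuron when it had at least 10 TPM there and at least 4-fold more than the higher tissue on TPM with 1 added. It was called lower when both tissues had at least 10 TPM and the lower of them was at least 4-fold above neuron, and kept when neuron had at least 10 TPM and lay within 2-fold of the range of the tissues. Of all tested genes, 243 (2.3%) were higher, 2431 (23.0%) lower and 4330 (41.0%) kept. Of the 431 tested genes of the neuronal lists, from 487 measured, 2 were higher, 143 lower and 149 kept, and 137 lay between these classes. Their median log2 difference, neuron minus the mean of both tissues on log2(TPM + 1), was -1.54, against -1.05 over all tested genes. Of the 156 tested genes of the non-neuronal lists, from 253 measured, 1 was higher, 122 were lower and 14 kept, with a median of -3.86. The split of calls over all genes followed the scaling: lower calls were 90.9% of higher and lower calls on TPM, 51.4% with TMM factors of the TPM (edgeR's trimmed mean, which sets most genes to a common level), 69.0% as CPM, which has no length term, and 67.5% once the trend with length was removed. The median of all tested genes, -1.05 on TPM, was -0.01 with those TMM factors, and levels of single genes are best read against it.

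**Figure D1:**
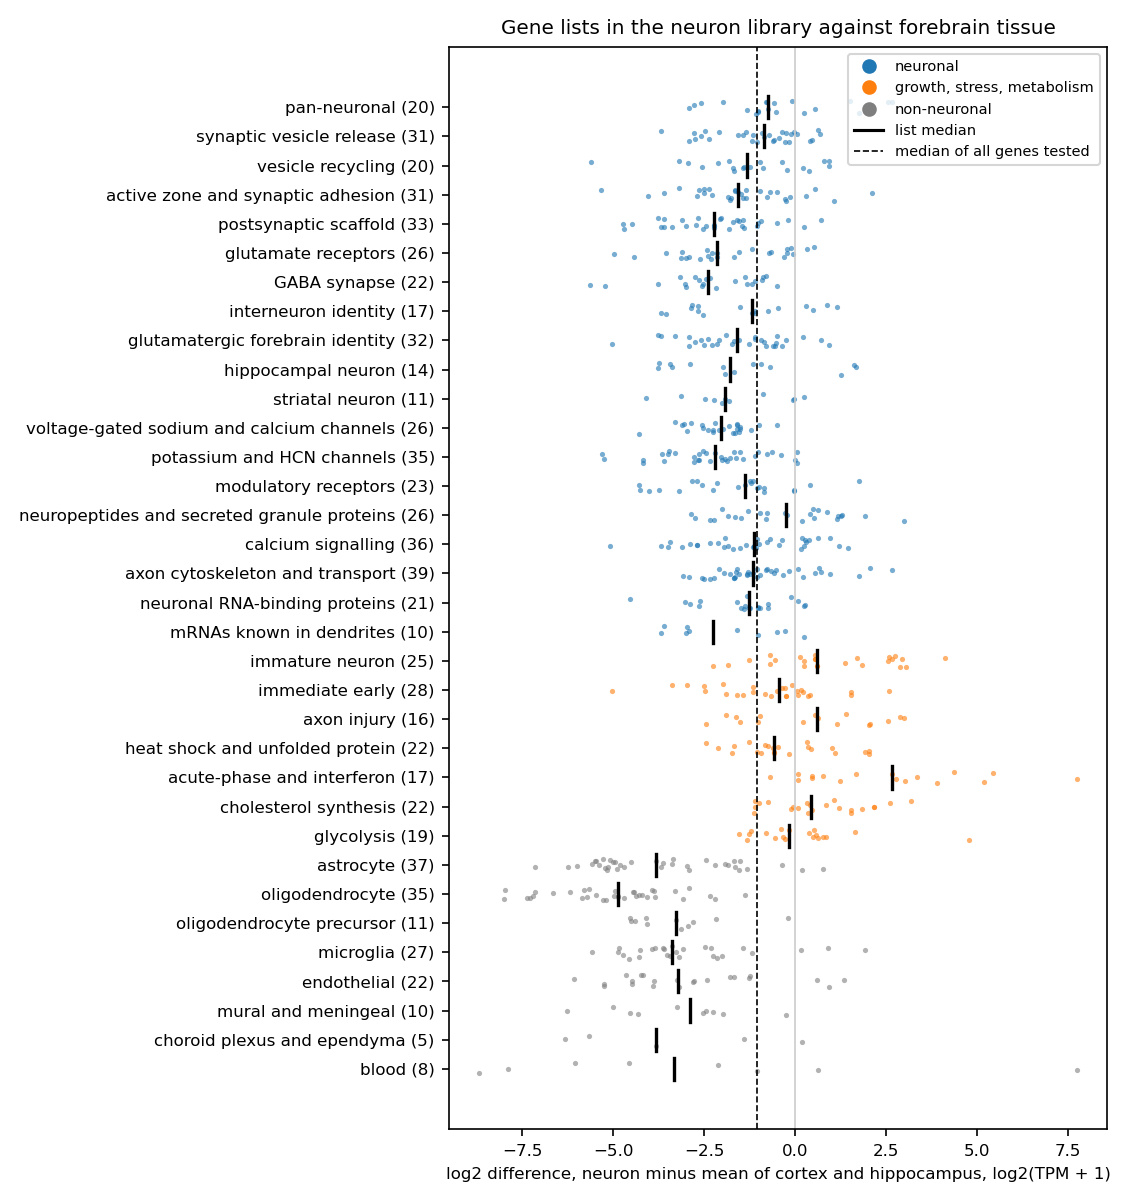
Log2 difference between the neuron library and the mean of cortex and hippocampus, on log2(TPM + 1), for each tested gene (points) of each list with 5 or more tested genes, with the number of tested genes in brackets, the list median (bar) and the median of all genes tested (dashed line, -1.05). The oligodendrocyte list lies farthest to the left, with a median of -4.88, and the acute-phase and interferon list farthest to the right, with 2.66.

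The pan-neuronal markers, genes that nearly all neurons express, checked the label. All 20 were at 10 TPM or more in each library, and their summed level was 16549 TPM in neuron, 15940.1 in cortex and 14907 in hippocampus. The neuron sum leaned on Stmn2, Stmn3 and Gap43, which lay well above both tissues and are given below. Stmn2 alone had 2852 TPM in neuron, 442 in cortex and 462 in hippocampus. The sum therefore does not show the other markers at tissue level. Of the 20 markers, 10 were kept, 3 lower and 1 higher. The median log2 difference of this list was -0.75 on TPM and turned positive, to 0.10 as CPM and 0.19 with TMM factors of the TPM, where scaling set most genes level. Thy1, a surface glycoprotein of projection neurons, had 695 TPM in neuron, 782 in cortex and 686 in hippocampus. Tubb3, the neuronal beta tubulin, had 552 TPM in neuron, 428 in cortex and 331 in hippocampus, and was 1.29-fold higher than in cortex (95% exact interval 1.21 to 1.37). This and the other intervals of fold changes cover counting error only, and compare 1 library with another. Nefl, the light neurofilament subunit, had 227 TPM in neuron, 342 in cortex and 440.0 in hippocampus. For these 3 genes the neuron library was inside or within 2-fold of the range of the tissues.

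The lower members of that list were Map2, Syt1 and Snap25. Map2, a microtubule-associated protein of dendrites, had 122 TPM in neuron, 953 in cortex and 895 in hippocampus, 7.35-fold lower than in the nearer tissue (6.98 to 7.74). Snap25, the membrane protein with which synaptic vesicles fuse, had 446 TPM in neuron, 2748 in cortex and 2634 in hippocampus, 5.91-fold lower (5.65 to 6.18). Neuron was the low library for both, by about the same factor against either tissue. Both calls were lost with TMM factors of the TPM, as CPM, and once the length trend described below was removed, as was that of Syt1, the calcium sensor of vesicle fusion.

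Transcript length went with these differences across the whole transcriptome. Among all tested genes the median log2 difference was 0.87 for effective lengths under 1000 bases, -0.38 from 1000 to 2000, -1.08 from 2000 to 3000, -1.62 from 3000 to 4500, -2.04 from 4500 to 6500 and -2.32 beyond. The neuronal lists followed the same course, at 0.76, -0.43, -1.07, -1.60, -2.16 and -2.29, with 20, 65, 84, 127, 81 and 54 genes. The non-neuronal lists did not run along it: their medians were -2.27, -4.12, -4.31, -3.93, -3.60 and -3.53, below those of the neuronal lists in each of the 6 length classes. Spearman's rho between log2 difference and effective length was -0.59 over all tested genes, -0.43 over the neuronal lists and -0.14 over the non-neuronal lists, given as a description across genes that share 3 libraries.

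The share of genes called followed. Of all tested genes, from the shortest class to the longest, 7.32%, 11.7%, 17.8%, 31.2%, 47.0% and 62.4% were lower. Kept genes made up 50.0%, 61.4%, 45.1%, 26.5%, 14.3% and 7.67% of these classes, and higher genes 11.7%, 1.62%, 0.639%, 0.321%, 0.176% and 0.174%. Neuronal list genes under 1000 bases were lower in 1 of 20 cases and kept in 13 of 20. Over 6500 bases they were lower in 29 of 54 cases (53.7%) and kept in 5 of 54, so their shares followed those of all genes. The neuronal genes called lower were thus mostly long, and 14 of the 143 had under 2000 bases, among them Snap25, Hpca, Syt17, Kcnk9 and Vip. Over 10168 protein-coding genes rho with the log2 difference was -0.42 for coding length, -0.40 for length of the 3' UTR, -0.12 for that of the 5' UTR, -0.45 for the span of the gene and 0.33 for GC content. The mean fragment length, which the deposited effective lengths give, was 164 bases in neuron, 166 in cortex and 183 in hippocampus.

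**Figure D2:**
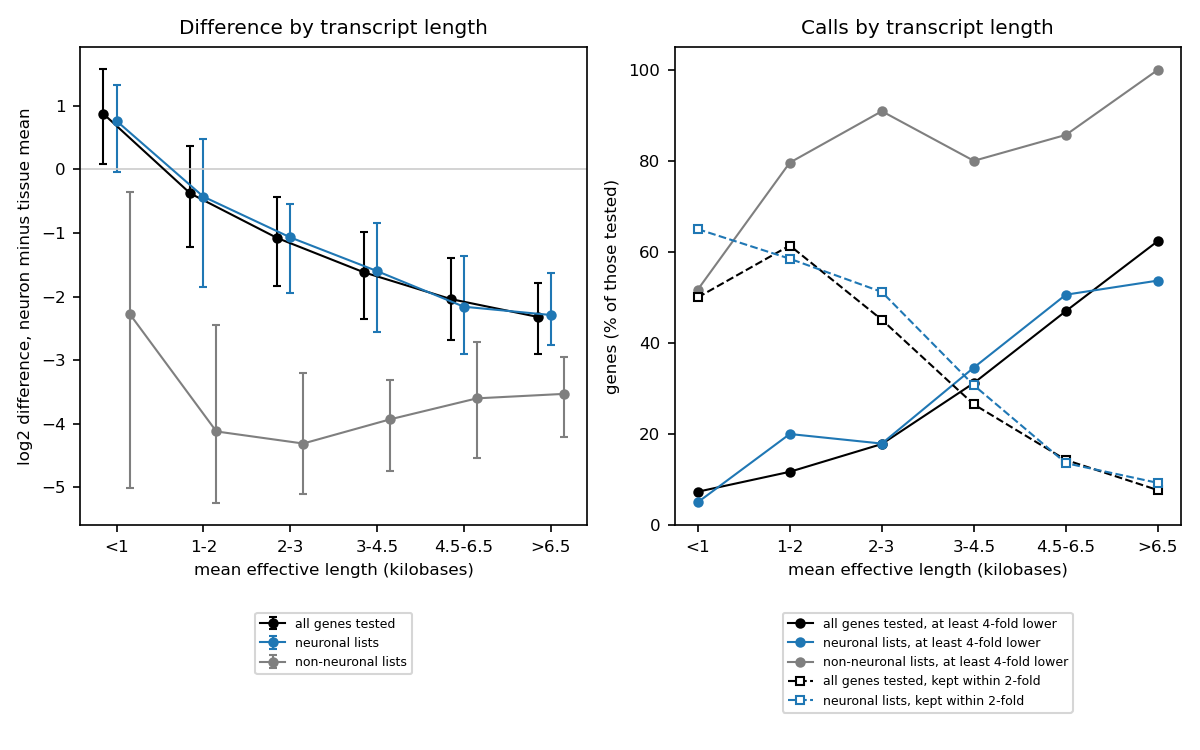
Left, median log2 difference (neuron minus the mean of cortex and hippocampus, log2(TPM + 1)) with quartiles by mean effective length in kilobases, for all genes tested, neuronal lists and non-neuronal lists. Right, percent of tested genes called lower (filled) or kept (open) in each length class. Neuronal genes run with all genes, from 0.76 under 1 kilobase to -2.29 over 6.5 kilobases, and non-neuronal genes stay below -2.2 in every class.

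When the median of genes of like length (20 bins) was subtracted, the median of the neuronal lists was -0.03, and that of the non-neuronal lists -2.82. The calling rule was then run again with the trend removed from the ratio to each tissue. Of all tested genes, 2.89% were then higher, 5.99% lower and 52.9% kept. Of the 431 neuronal genes, 7 were then higher, 30 lower and 258 kept. Of the 143 neuronal genes called lower on TPM, 28 stayed lower and 52 became kept. Of the 156 non-neuronal genes, 102 were lower and 15 kept. Of the neuronal genes described below as lower, Synpr, Syt17, Rimbp2, Dlg2, Grin2a, Gabra2, Gabrb2, Kcna2, Kcnk9, Kcnma1, Vip, Lamp5, Egr3, C1ql3, Chrna7, Sstr1, Hpca and Atp2b3 were lower with the trend removed too, and the others were not. A length-adjusted value below is a gene's log2 difference minus that median. The correction sets genes of a length class to a common level by construction.

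Of the 6 synaptic lists, vesicle release had the largest share of kept genes on TPM and vesicle recycling as CPM. Of 31 tested genes of synaptic vesicle release, 17 were kept (54.8%, against 41.0% of all tested genes) and none higher. The 8 lower genes (25.8%) were near the 23.0% of all tested genes. The median of this list was -0.85, and 0.56 after adjustment for length. Syp, synaptophysin, an abundant protein of the vesicle membrane, had 906 TPM in neuron, 1291 in cortex and 1421 in hippocampus. Vamp2, the vesicle's own fusion protein, had 722 TPM in neuron, 1036 in cortex and 930 in hippocampus. Sncb, beta-synuclein, had 735 TPM in neuron, 508 in cortex and 411 in hippocampus. All 3 stayed within 2-fold, Syp and Vamp2 below both tissues and Sncb above both. Against these stood Synpr, synaptoporin, a relative of synaptophysin, with 13.8 TPM in neuron, 195 in cortex and 186 in hippocampus, 13.5-fold lower (10.9 to 16.7) and with a length-adjusted value of -2.78. Among the 20 genes of vesicle recycling, 9 were kept and 5 lower, with a median of -1.32. The clathrin light chains Clta and Cltb, parts of the coat that retrieves vesicle membrane, were kept, with Clta at 697 TPM in neuron, 395 in cortex and 409 in hippocampus. Dnajc6, auxilin, which uncoats those vesicles, had 22.8 TPM in neuron, 203 in cortex and 234 in hippocampus, 8.92-fold lower (7.96 to 10.02). Syt17, a synaptotagmin, had 0.45 TPM in neuron, 69.3 in cortex and 71.1 in hippocampus. On 1446 bases this is 156-fold lower (42.6 to 1294) and the most negative length-adjusted value of the vesicle genes named here, -5.17.

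The active zone, where vesicles are released, and the adhesion proteins across the synapse gave 1 higher, 10 lower and 9 kept genes of 31. Lin7b, a small scaffold protein of the synapse, had 406 TPM in neuron, 222 in cortex and 171 in hippocampus and was kept. Rims1, a scaffold of the active zone, had 10.7 TPM in neuron, 156 in cortex and 127 in hippocampus. Rimbp2, which couples that scaffold to calcium channels, had 0.32 TPM in neuron, 52.8 in cortex and 52.4 in hippocampus, 166-fold lower (64.3 to 613). Rims1 was 11.9-fold lower with a length-adjusted value of -1.82, against -3.66 for Rimbp2. Ppfia3, liprin-alpha-3, another active zone scaffold, was 1 of the 2 genes of the 19 neuronal lists called higher, with 429 TPM in neuron, 103 in cortex and 95.3 in hippocampus. That is 4.18-fold higher (3.86 to 4.52), just past the threshold, and the call was lost as CPM. Ppfia3 had 1562 expected counts in neuron, 1021 in cortex and 657 in hippocampus, and its deposited effective length was shorter in neuron. Ppfia3 lies at chr7:45339122-45367019 and Rimbp2 at chr5:128757791-128953486 (GRCm38, mm10).

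Of 33 tested genes of the postsynaptic scaffold, 16 were lower and 7 kept, with a median of -2.23. Their median effective length was 4139 bases against 2411 bases for all tested genes, and their length-adjusted median was -0.04. Nrgn, neurogranin, which binds calmodulin in dendritic spines, had 1525 TPM in neuron, 1309 in cortex and 1268 in hippocampus. Dlg4, the scaffold PSD-95, had 237 TPM in neuron, 506 in cortex and 466 in hippocampus, also kept. Camk2a, the kinase of synaptic plasticity, had 164 TPM in neuron, 1822 in cortex and 2477 in hippocampus, 11.1-fold lower (10.6 to 11.6). Its partner subunit Camk2b had 328 TPM in neuron, 555 in cortex and 830 in hippocampus. So Camk2a was above Camk2b in both tissues and below it in neuron, on TPM. Dlg2, a relative of Dlg4, had 5.45 TPM in neuron, 179 in cortex and 164 in hippocampus, 30.01-fold lower (22.8 to 40.2). Of 10 genes whose mRNAs are known to travel into dendrites, 5 were lower and 4 kept. Shank1, a spine scaffold on that list, had 14.3 TPM in neuron, 167 in cortex and 199.5 in hippocampus.

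Receptors of 1 transmitter differed among their subunits. Of 26 tested glutamate receptor genes, 11 were lower and 9 kept, with a median of -2.15 and -0.09 after adjustment for length. Grin1, the subunit every NMDA receptor needs, had 286 TPM in neuron, 302 in cortex and 315 in hippocampus, a level within 1.06-fold of cortex (0.998 to 1.12). Grin2b, a partner subunit that prevails in young neurons, had 18.3 TPM in neuron, 97.4 in cortex and 92.9 in hippocampus, 5.07-fold lower (4.68 to 5.51), on a transcript of 15408 bases. Grin2a, the partner that takes over with maturation, had 0.23 TPM in neuron, 25 in cortex and 55.9 in hippocampus, 109-fold lower (36.9 to 532). On TPM, Grin1 was thus level across the libraries, Grin2b lower and Grin2a close to the limit of detection in neuron. Grin1 had 2327 expected counts in neuron, 2632 in cortex and 1900 in hippocampus, and its deposited effective length was shorter in neuron. The near-level TPM of Grin1 rests in part on that length. Gria2, the AMPA receptor subunit that sets calcium permeability, had 74.0 TPM in neuron, 395 in cortex and 535 in hippocampus, 5.34-fold lower. Cnih2, an auxiliary protein of those receptors, had 566 TPM in neuron, 325 in cortex and 629.6 in hippocampus, inside the range of the tissues. Grin2b and Gria2 were chosen as examples after their values were seen.

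Of 22 tested genes of the GABA synapse, 12 were lower and 5 kept, with a median of -2.39 on TPM, and -0.66 after adjustment for length. Gabbr1, a subunit of the metabotropic GABA receptor, had 299 TPM in neuron, 568 in cortex and 532 in hippocampus, and was kept. Gabra2, an alpha subunit of the GABA-gated chloride channel, had 1.74 TPM in neuron, 124 in cortex and 150.3 in hippocampus, 71.4-fold lower (40.6 to 139). Gabra5, the alpha subunit enriched in hippocampus, had 62.4 TPM in neuron, 59.2 in cortex and 203.5 in hippocampus. Of these 2 alpha subunits, neuron was at cortex level for Gabra5 and far below both tissues for Gabra2. Gabrb2, a beta subunit, had 1.42 TPM in neuron, 103 in cortex and 78.2 in hippocampus, 55.2-fold lower (30.5 to 111), while Gabrb1 had 26.8 TPM in neuron, 35.3 in cortex and 40.9 in hippocampus. With the length trend removed, Gabra2 and Gabrb2 were the 2 genes of this list still called lower, at length-adjusted values of -4.74 and -3.65.

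**Figure D3:**
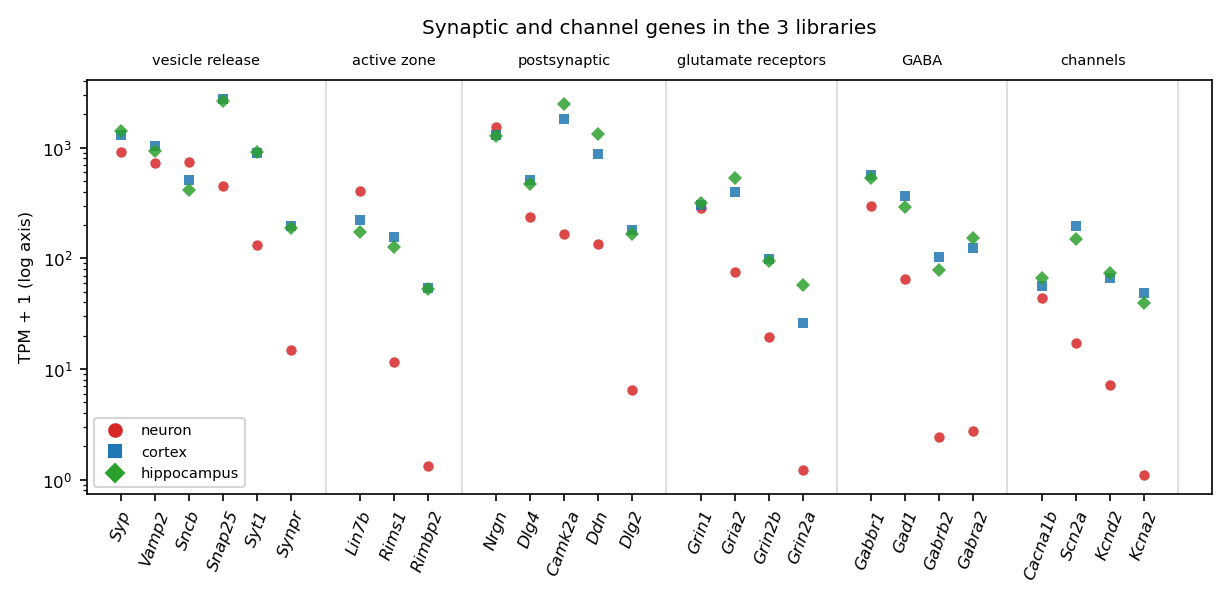
TPM with 1 added, on a log axis, of synaptic and channel genes in the neuron, cortex and hippocampus libraries, 1 point per library. Syp, Nrgn, Grin1 and Cacna1b lie close together in the 3 libraries, while Rimbp2, Grin2a, Gabra2 and Kcna2 are between 0.1 and 1.74 TPM in neuron and at least 25 TPM in both tissues.

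Both main classes of forebrain neuron were represented. Slc17a7, the vesicular glutamate transporter of cortical and hippocampal excitatory neurons, had 173 TPM in neuron, 883 in cortex and 961 in hippocampus, 5.10-fold lower (4.81 to 5.40). Gad1, which makes GABA, had 63.8 TPM in neuron, 369 in cortex and 292 in hippocampus, 4.57-fold lower (4.14 to 5.06). Slc32a1, which loads GABA into vesicles, had 47.6 TPM in neuron, 134.5 in cortex and 61.6 in hippocampus, and was kept. Slc17a7 and Gad1 were thus below both tissues, while Slc32a1 was near the level of hippocampus. Slc17a7 and Gad1 were chosen as examples after their values were seen.

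Of 32 tested genes of glutamatergic forebrain identity, 11 were lower (34.4%, against 23.0% of all tested genes). The 14 kept (43.8%) were near the 41.0% of all tested genes. Lmo4, a transcriptional cofactor, had 374 TPM in neuron, 239 in cortex and 217 in hippocampus. Emx1, a transcription factor of the dorsal telencephalon named here after its value was seen, had 36.4 TPM in neuron, 19.7 in cortex and 17.4 in hippocampus. Bcl11b, a transcription factor of deep-layer neurons, had 4.52 TPM in neuron, 51.7 in cortex and 55.3 in hippocampus. Lamp5, a membrane protein of a class of interneurons and of upper-layer cells, had 6.63 TPM in neuron, 163 in cortex and 56.9 in hippocampus. Among these 4, Lmo4 and Emx1 lay above both tissues, and Bcl11b and Lamp5 below both. Of 14 tested genes of hippocampal neurons, 5 were lower and 4 kept. Against hippocampus alone, without cortex, 11 of 18 were lower and 2 kept, and 1 was lower with 5 TPM added. C1ql3, a secreted synaptic organiser, had 6.20 TPM in neuron, 90.7 in cortex and 102.5 in hippocampus, 14.8-fold lower (10.9 to 20.5).

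Interneuron genes ran from above both tissues to far below them. Of 17 tested interneuron genes, 5 were kept and 7 lower. Sst, somatostatin, had 1080.3 TPM in neuron, 816 in cortex and 738 in hippocampus, 1.32-fold higher than cortex (1.21 to 1.45). Npy, neuropeptide Y, had 441 TPM in neuron, 244 in cortex and 163 in hippocampus. Vip, vasoactive intestinal peptide, had 4.98 TPM in neuron, 48.2 in cortex and 37.0 in hippocampus, 7.42-fold lower (4.54 to 12.6), a call lost as CPM and with TMM factors of the TPM. Thus 2 peptides lay above both tissues and Vip below both. These 3 transcripts are short, and against genes of like length their values were -0.87, -0.20 and -2.61. Pvalb, parvalbumin, a calcium buffer of fast-spiking interneurons named here after its value was seen, had 25.5 TPM in neuron, 76.6 in cortex and 72.9 in hippocampus.

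Over the 26 tested neuropeptide and granule genes, 14 were kept and 3 lower, with a median of -0.25. Cck, cholecystokinin, had 976 TPM in neuron, 711 in cortex and 1018 in hippocampus. Chga, a granule protein, had 318 TPM in neuron, 256 in cortex and 189.9 in hippocampus. Pcsk2, a convertase that cuts peptide precursors, had 24.0 TPM in neuron, 192 in cortex and 148 in hippocampus, 6.17-fold lower (5.46 to 6.998), a call lost as CPM and with TMM factors of the TPM. Cck and Chga were at tissue level while the processing enzyme was below both tissues. This median is above that of all genes (-1.05), but these transcripts were short, with a median effective length of 1814 bases, and the length-adjusted median was -0.50.

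Genes of striatal neurons separated the tissues from each other more than neuron from both. Their summed level was 376 TPM in neuron, 3745 in cortex and 412 in hippocampus. Of 11 tested, 8 were kept and 2 lower. Ppp1r1b, DARPP-32, the dopamine-regulated phosphatase inhibitor, had 99.8 TPM in neuron, 680.2 in cortex and 50.5 in hippocampus. Penk, the enkephalin precursor, had 64.3 TPM in neuron, 1134 in cortex and 61.0 in hippocampus. The neuron library was near hippocampus for both. Being kept here rests on hippocampus alone: without it Penk and Ppp1r1b were called lower.

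Ion channel genes were lower in most cases or lay between the classes. Of 26 tested sodium and calcium channel genes, 11 were lower and 2 kept, with a median of -2.04. The median effective length of this list was 5006 bases, and its length-adjusted median was -0.14, with none lower once the trend was removed. Cacna1b, the pore of the N-type calcium channel that triggers release, had 42.7 TPM in neuron, 55.8 in cortex and 65.2 in hippocampus. It had 352 expected counts in neuron, 1034 in cortex and 640 in hippocampus, and its deposited effective length was shorter in neuron. Its near-level TPM rests in part on that length. Scn2a, a sodium channel of excitatory neurons, had 16.3 TPM in neuron, 195 in cortex and 150.1 in hippocampus, 9.18-fold lower (8.24 to 10.2).

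Of 35 tested potassium and HCN channel genes, 18 were lower and 9 kept. Kcna2, a delayed rectifier of axons, had 0.10 TPM in neuron, 47.3 in cortex and 38.8 in hippocampus, 395-fold lower with a wide interval (70.1 to 15686). Kcnk9, a leak channel, had no count in neuron, 42.3 TPM in cortex and 33.1 in hippocampus, at least 35.7-fold lower with neuron set to 3 counts. Kcnma1, the large-conductance calcium-activated channel, had 2.26 TPM in neuron, 61.2 in cortex and 54.4 in hippocampus, 24.0-fold lower (16.4 to 36.7). All 3 were under 2.3 TPM in neuron and above 33 TPM in both tissues. These 3, with Kcnj6 and Kcnab1, were the 5 potassium channel genes still lower with the length trend removed, and this list's length-adjusted median was -0.52.

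Receptors for modulators were mostly at low level. Of 44 measured genes, 21 did not reach the minimum for the comparison, and of 23 tested 8 were lower and 7 kept, with a median of -1.37. Without hippocampus, 30 were tested, of which 17 were lower and 4 kept, with a median of -2.67, and with 5 TPM added 2 of 23 were lower. Adora1, the inhibitory adenosine receptor, had 52.5 TPM in neuron, 95.2 in cortex and 164 in hippocampus. Chrna7, a nicotinic receptor subunit, had 0.34 TPM in neuron, 17.5 in cortex and 35.6 in hippocampus, 52.1-fold lower (13.9 to 438). Sstr1, a somatostatin receptor, had no count in neuron, 27.2 TPM in cortex and 12.2 in hippocampus, at least 21.6-fold lower. The ligand of Sstr1, Sst, was above both tissues, as given before.

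Of 36 tested calcium signalling genes, 18 were kept (50.0%, against 41.0% of all tested genes) and 9 lower, a share near the 23.0% of all tested genes. Calm3, which encodes calmodulin, had 1672 TPM in neuron, 1397 in cortex and 1611 in hippocampus. Atp2b3, a calcium pump of the plasma membrane, had 1.28 TPM in neuron, 66.0 in cortex and 89.9 in hippocampus, 51.6-fold lower (31.6 to 90.9). Hpca, hippocalcin, a calcium sensor named here after its value was seen, had 151 TPM in neuron, 1107 in cortex and 2596 in hippocampus, 7.32-fold lower (6.70 to 8.004). On 1153 bases its length-adjusted value was -3.56. These 3 range from level to far below both tissues.

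The cytoskeleton of the axon ran from higher to lower by gene. Of 39 tested genes, 14 were kept (35.9%), 7 lower (17.9%) and 1 higher (2.56%), against 41.0%, 23.0% and 2.3% of all tested genes. Their median was -1.15, and 0.55 after adjustment for length. Stmn2, stathmin-2, a tubulin-binding protein of growing axons, had 2852 TPM in neuron, 442 in cortex and 462 in hippocampus. It was 6.17-fold higher than hippocampus (5.83 to 6.54). Stmn2 had 7836 expected counts in neuron, 1930 in cortex and 1391 in hippocampus, and its deposited effective length was shorter in neuron. Its fold on TPM rests in part on that length. The gene lies at chr3:8509360-8561606 (GRCm38, mm10). Stmn3, a relative, had 3137 TPM in neuron, 879 in cortex and 972 in hippocampus, 3.23-fold higher and short of a call. Kif5a, the kinesin heavy chain of neurons, had 222 TPM in neuron, 1379.6 in cortex and 1148 in hippocampus, and Klc1, its light chain, had 459 TPM in neuron, 754 in cortex and 697 in hippocampus. Ank3, ankyrin-G, which anchors channels at the start of the axon, had 27.0 TPM in neuron, 256 in cortex and 217 in hippocampus. The stathmins were above both tissues, and Kif5a, Klc1 and Ank3 below both.

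Some long transcripts were at tissue level. Of 21 tested neuronal RNA-binding proteins, 8 were kept (38.1%) and 5 lower (23.8%), near the shares of all tested genes (41.0% and 23.0%). Elavl3, an RNA-binding protein that stabilises neuronal mRNAs, had 134 TPM in neuron, 111 in cortex and 114 in hippocampus. Kif21b, a kinesin, had 54.0 TPM in neuron, 34.6 in cortex and 32.6 in hippocampus. Nova2, a neuronal splicing factor named here after its value was seen, had 25.8 TPM in neuron, 29.0 in cortex and 27.3 in hippocampus. With effective lengths of 4856, 8529.9 and 7862 bases, these 3 were level with tissue where genes of like length were lower, at length-adjusted values of 2.28, 2.99 and 2.20. With Stmn2, Ppfia3, Ntsr1 and Pnoc they were the 7 genes of the neuronal lists called higher with the length trend removed. For Stmn2 and Ppfia3 this rests on a mean of effective lengths that differed between the libraries, as given above. Ntsr1, a neurotensin receptor of deep-layer cortex, had 20.9 TPM in neuron, 7.11 in cortex and 4.21 in hippocampus, and Pnoc, the nociceptin precursor, had 30.3 TPM in neuron, 7.91 in cortex and 6.69 in hippocampus. Neuron was the highest library for both, and neither reached the 4-fold threshold on TPM.

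Genes of immature, growing neurons were gained in part. Of 25 tested genes, 7 were higher (28.0%, against 2.3% of all tested genes), 11 kept and 1 lower, with a median of 0.60, and 12 were higher with the length trend removed. Their summed level was 26610.1 TPM in neuron, 7370 in cortex and 6019 in hippocampus. Tmsb10, thymosin beta-10, which binds actin monomers, had 4685 TPM in neuron, 361 in cortex and 202 in hippocampus, 12.98-fold higher (11.6 to 14.5). Cd24a, a surface protein of young neurons, had 115 TPM in neuron, 12.2 in cortex and 13.9 in hippocampus, 8.26-fold higher (5.89 to 11.9). Dpysl5, a collapsin response mediator that acts in axon guidance, had 130.2 TPM in neuron, 16.7 in cortex and 15.5 in hippocampus, 7.79-fold higher (6.71 to 9.10). In all 3 the neuron library was far above both tissues, which lay close together. Dpysl3, of the same family as Dpysl5, had 243 TPM in neuron, 33.4 in cortex and 37.6 in hippocampus, 6.46-fold higher (5.70 to 7.36). Tubb2b, a tubulin of developing brain, had 1760.2 TPM in neuron, 204 in cortex and 283 in hippocampus, 6.22-fold higher (5.78 to 6.69). The others called higher were Tuba1a and Marcksl1, and Tuba1a, an alpha tubulin, had 10064 TPM in neuron, 1850.3 in cortex and 1512 in hippocampus. Tubulin genes have near-identical copies, so the split of reads among them is uncertain.

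Not every gene of immature neurons took part. Gap43, a growth cone protein, had 2040.3 TPM in neuron, 516 in cortex and 229.8 in hippocampus, 3.95-fold above cortex (3.73 to 4.18) and just under the threshold. Dcx, doublecortin, a marker of migrating neurons, had 20.1 TPM in neuron, 19.6 in cortex and 14.5 in hippocampus. Sox11, a transcription factor of neurons leaving the cell cycle, had 13.5 TPM in neuron, 10.5 in cortex and 7.51 in hippocampus. Dcx and Sox11 were thus near tissue level on TPM, with length-adjusted values of 2.56 and 2.87. Eomes, of intermediate progenitors, had 0.38 TPM in neuron, 0.64 in cortex and 1.30 in hippocampus, under the minimum. Ccnd2, a cyclin, was the lower gene, with 8.94 TPM in neuron, 44.6 in cortex and 47.9 in hippocampus. Of 20 genes of dividing cells, 18 were under the minimum, and Top2a, a topoisomerase of cycling cells, had 4.38 TPM in neuron, 3.60 in cortex and 4.06 in hippocampus. Gap43, Dcx, Sox11, Eomes and Top2a were chosen after their values were seen.

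Of 28 tested immediate early genes, which activity switches on, 15 were kept (53.6%), 5 lower (17.9%) and 1 higher (3.57%), against 41.0%, 23.0% and 2.3% of all tested genes. Egr1 had 61.7 TPM in neuron, 226 in cortex and 124 in hippocampus. Egr3, of the same family, had 1.29 TPM in neuron, 83.3 in cortex and 64.8 in hippocampus, 50.2-fold lower (20.9 to 157). Arc, whose product acts at synapses, had 28.3 TPM in neuron, 236 in cortex and 225 in hippocampus, 7.95-fold lower (6.92 to 9.16). Gadd45g, a growth arrest gene, had 255 TPM in neuron, 46.9 in cortex and 37.5 in hippocampus, 5.44-fold higher (4.39 to 6.81). Egr3 and Arc lay below both tissues and Gadd45g above both. Of 16 tested genes of axon injury, 1 was higher (Tubb2b), 1 lower and 6 kept. The higher genes of that list were 6 of 16 without cortex, 3 without ribosomal protein genes, 2 with the length trend removed, and 5 as CPM or with either set of TMM factors. Of 22 genes of heat shock and the unfolded protein response 1 was higher, 2 lower and 12 kept. Atf5, a stress transcription factor, had 71.7 TPM in neuron, 16.6 in cortex and 16.96 in hippocampus, 4.23-fold higher (3.09 to 5.92), and its call was lost when counts were thinned to the smallest library.

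Of 22 tested genes of sterol synthesis, 3 were higher, 11 kept and none lower, and 8 lay between the classes, with a median of 0.43 on TPM, and 1.63 after adjustment for length, with 21 of 22 above genes of like length. Mvd, mevalonate diphosphate decarboxylase, had 196 TPM in neuron, 22.2 in cortex and 19.1 in hippocampus, 8.82-fold higher (7.02 to 11.2). Fdps, farnesyl diphosphate synthase, had 641 TPM in neuron, 122 in cortex and 87.4 in hippocampus, 5.24-fold higher (4.64 to 5.93). Both enzymes were above both tissues, which lay close together for Mvd. Of 19 tested glycolysis genes, 13 were kept. Hk2, a hexokinase, was the higher one, with 93.4 TPM in neuron, 1.96 in cortex and 3.07 in hippocampus, 30.4-fold higher (20.2 to 47.8). It had 195 expected counts in neuron, 24 in cortex and 26 in hippocampus, and its deposited effective length was shorter in neuron. Its log2 ratio to the nearer tissue was 4.54 on TPM and 2.63 as CPM. Gapdh had 5628 TPM in neuron, 3918 in cortex and 3645 in hippocampus.

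Genes of the acute-phase and interferon response gave the largest share of higher calls on TPM among the lists with 5 or more tested genes, 9 of 17 tested (52.9%, against 2.3% of all tested genes), with 6 kept and none lower. All 17 reached 10 TPM in neuron, while 8 genes of the list did in cortex and 8 in hippocampus. The rest were tested only through their level in neuron and could not be called lower. The share of higher calls and the lack of lower ones are thus partly set by the minimum. With TMM factors of the TPM and as CPM, the ribosomal protein list described below had the larger share. Isg15, a ubiquitin-like protein induced by interferon, had 154 TPM in neuron, 2.96 in cortex and 2.20 in hippocampus, 51.9-fold higher (20.1 to 192). Oasl2, of the oligoadenylate synthetase family, had 67.8 TPM in neuron, 1.33 in cortex and 3.85 in hippocampus, 17.6-fold higher (11.05 to 29.9). Lcn2, lipocalin-2, an iron-binding secreted protein that stood on the blood list too, had 277 TPM in neuron, 0.66 in cortex and no count in hippocampus, 419-fold above cortex (74.9 to 16578). Saa3, serum amyloid A3, had 35.2 TPM in neuron and no count in either tissue, at least 9.80-fold above cortex set to 3 counts. Against hippocampus, where 3 counts are worth more TPM, the bound is lower. Neuron was the high library in all 4. B2m, the light chain of MHC class I, was level, at 213 TPM in neuron, 207 in cortex and 196 in hippocampus, while the heavy chain gene H2-K1, named here after its value was seen, had 197 TPM in neuron, 31.4 in cortex and 29.4 in hippocampus.

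Because these genes moved together, their promoters were searched for GAAA, any 2 bases and GAAA again, the core of the interferon-stimulated response element, on both strands in the 250 bases before the start site, from RefSeq on GRCm38.p6. Of 15 tested list members with a promoter sequence, 6 held it (Isg15, Ifit1, Ifit3, Bst2, B2m and Saa3), among them 4 of the 9 called higher. Of all tested genes with a promoter, 237 of 8239 (2.88%) held it. The list gathers interferon and acute-phase genes, so a share above that of all genes follows in part from the choice of list. Whether the motif goes with the higher calls was not tested. Shown with 30 bases on each side are stretches for 2 genes called higher and 1 that was level, with the match, or overlapping matches, in capitals, 5' to 3' along the gene's strand.
Isg15, chr4:156200845-156200926, minus strand: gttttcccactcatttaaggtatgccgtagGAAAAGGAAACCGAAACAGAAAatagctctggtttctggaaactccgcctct
Ifit1, chr19:34640755-34640843, plus strand: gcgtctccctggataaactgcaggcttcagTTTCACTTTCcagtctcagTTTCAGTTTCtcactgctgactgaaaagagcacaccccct
B2m, chr2:122147518-122147587, plus strand: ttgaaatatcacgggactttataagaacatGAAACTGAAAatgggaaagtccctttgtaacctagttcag
Isg15 carried 3 overlapping matches on the gene's strand, Ifit1 carried 2 on the opposite strand, and B2m carried 1. Isg15 and Ifit1 were higher in neuron, Ifit1 with 24.0 TPM against 2.81 and 2.54, and B2m was not. A match describes the letters in this window only. For sterol synthesis, TCACNCCAC, a sterol regulatory element, was found in 1 of 16 promoters (Hmgcs1), against 1.34% of tested genes.

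**Figure D4:**
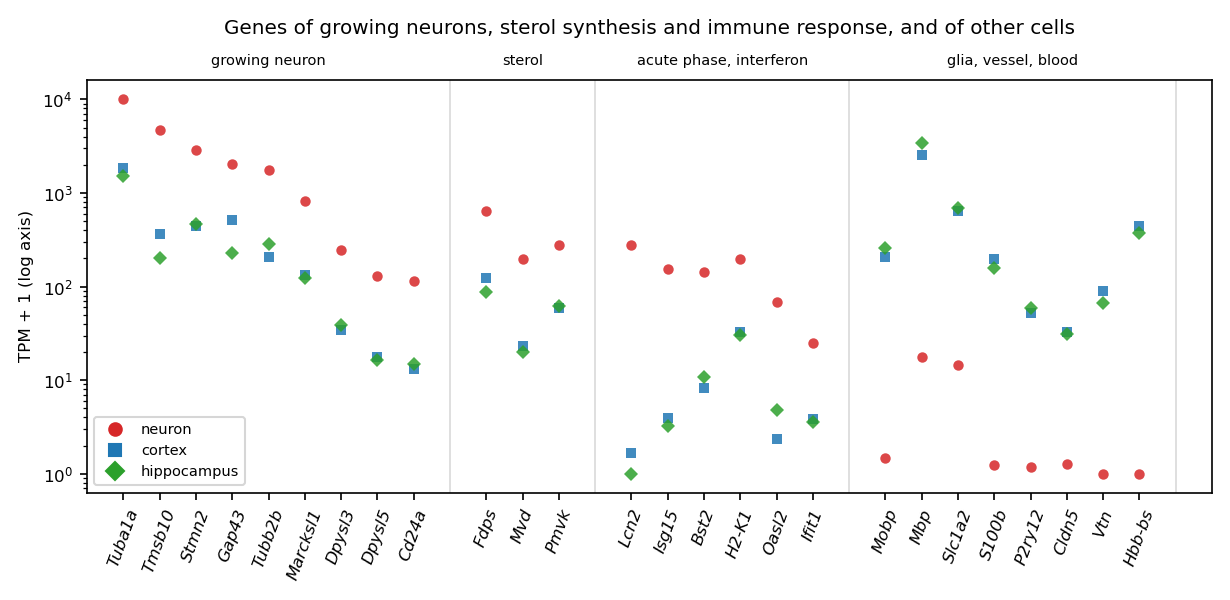
TPM with 1 added, on a log axis, of genes of growing neurons, sterol synthesis, the acute-phase and interferon response, and glia, vessels and blood, 1 point for each of the neuron, cortex and hippocampus libraries. Neuron is the highest of the 3 libraries for every gene in the first 3 groups and the lowest for every gene in the last.

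Genes of glia, vessels and blood were set apart as measures of what else the preparation held. Of 35 tested oligodendrocyte genes, 34 were lower, and their summed level was 270 TPM in neuron, 10113 in cortex and 10269.8 in hippocampus. Mobp, a protein of central myelin, had 0.48 TPM in neuron, 206 in cortex and 259.5 in hippocampus, 425-fold lower (117 to 3518). Of 37 tested astrocyte genes, 27 were lower and 3 kept, with sums of 6304, 22222 and 24399.8 TPM. S100b, a calcium-binding protein of astrocytes, had 0.24 TPM in neuron, 196 in cortex and 157 in hippocampus. Gfap, the filament of reactive astrocytes, had 20.2 TPM in neuron, 169 in cortex and 408 in hippocampus. The kept astrocyte genes were the metallothioneins Mt1, Mt2 and Mt3, short transcripts that other cells express too. Of 27 tested microglial genes, 21 were lower and 3 kept, with sums of 252, 1199.6 and 1129 TPM. P2ry12, the purinergic receptor of resting microglia, had 0.17 TPM in neuron, 51.8 in cortex and 57.4 in hippocampus. Cd68, a lysosomal protein of phagocytes, had 37.6 TPM in neuron, 21.4 in cortex and 18.6 in hippocampus, and Aif1 had 12.3 TPM in neuron, 11.3 in cortex and 10.5 in hippocampus. Siglech, P2ry13, Gpr34 and Selplg, also of microglia, had no count in neuron. Markers of this cell type thus differed among themselves on TPM, with Cd68, Aif1 and Fcer1g kept and P2ry12 far below both tissues. The 3 kept are short, at effective lengths of 788, 667 and 503 bases, with 90, 26 and 17 expected counts in neuron. Fcer1g was lower with the length trend removed. As CPM, 17 of 23 tested microglial genes were lower, 1 higher and none kept. H2-Ab1, an MHC class II chain of antigen-presenting cells and 1 of the leading higher genes outside the lists, had 58.3 TPM in neuron, 2.44 in cortex and 1.89 in hippocampus, 23.9-fold higher (10.04 to 74.5). Microglia and other immune cells also express the interferon and acute-phase genes above, and their part in those differences was not tested.

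Of 22 tested endothelial genes, 15 were lower and 2 kept. The summed level of this list was 2269.7 TPM in neuron, 2222.5 in cortex and 1948.2 in hippocampus. Most of the sum in neuron was Bsg, basigin, a surface protein that other cells express too, named here after its value was seen, with 1903 TPM in neuron, 782 in cortex and 719.5 in hippocampus. Of 10 mural and meningeal genes 8 were lower. Cldn5, of the tight junctions of brain vessels, had 0.26 TPM in neuron, 31.5 in cortex and 30.1 in hippocampus. Vtn, a marker of pericytes, had no count in neuron, 89.2 TPM in cortex and 66.1 in hippocampus, at least 65.5-fold lower. Hbb-bs, a haemoglobin chain, had no count in neuron, 445 TPM in cortex and 374 in hippocampus, at least 160-fold lower, with the caution that haemoglobin copies share reads. Of the tested non-neuronal genes, 14 had no count in neuron. With the length trend removed, 31 of 35 oligodendrocyte, 25 of 37 astrocyte, 18 of 27 microglial and 12 of 22 endothelial genes were lower.

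Over all tested genes, the 243 higher calls held 161 protein-coding genes, and 24 of the 243 were on the lists named at the start. The higher calls also held 32 copies of 5S ribosomal RNA genes, each with under 1 expected count in neuron and a near-zero effective length, which are not levels a reader can use. Ribosomal protein genes, added as a list after the data were seen, gave 14 higher and none lower of 79, and nuclear genes of oxidative phosphorylation 8 higher and none lower of 79. Both lists are of short transcripts, with median effective lengths of 512 and 533 bases, and with the length trend removed 1 and 2 of them were higher. The leading higher genes by ratio included Ifi27l2a, an interferon-induced gene, with 281 TPM in neuron and no count in either tissue. It was at least 63.6-fold above cortex set to 3 counts, and the bound against hippocampus is lower. Prph, peripherin, a neurofilament protein of peripheral and injured neurons, had 153 TPM in neuron, 0.82 in cortex and 2.38 in hippocampus, 64.5-fold higher (29.5 to 176). Xist, the RNA that coats the inactive X chromosome in female cells, had 503 TPM in neuron, 0.92 in cortex and 0.15 in hippocampus. Sex is not stated in the labels, and whether it differed between the libraries was not tested. Neuron was the high library for each of these 3.

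Of the 2431 lower calls, 2161 genes were on no list. With the non-neuronal lists left out, the leading lower genes included several with known roles in neurons or in glia. Nos1ap, an adaptor of neuronal nitric oxide synthase, had 0.68 TPM in neuron, 117 in cortex and 159 in hippocampus, 172-fold lower (78.2 to 471). Ptprn2, a protein of secretory granules, had 2.28 TPM in neuron, 238 in cortex and 202.5 in hippocampus, 88.7-fold lower (54.3 to 156). Selenop, a secreted selenoprotein, had 5.16 TPM in neuron, 451 in cortex and 436 in hippocampus, 84.5-fold lower (58.1 to 128). S1pr1, a lipid receptor of vessels and astrocytes, had 1.02 TPM in neuron, 121 in cortex and 117 in hippocampus, 115-fold lower (60.2 to 253). Both tissues agreed to within 1.5-fold in each of these 4, and neuron was low. Snurf had the largest ratio, with no count in neuron, 858 TPM in cortex and 1069.6 in hippocampus, but it overlaps Snrpn, its effective length is short and the split of reads is uncertain.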

How the data were processed

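RNA of the 3 libraries was taken up in Trizol as total RNA, and 1 ug went into the Illumina TruSeq RNA kit, per the labels' protocols. The submitters' processing notes name Bowtie, RSEM and the build mm10. For tool versions, annotation release and strandedness there is no statement: they are not given in the labels, notes or headers used here. Expected counts, which RSEM estimates and need not be whole, were deposited by the authors per gene. The authors also deposited TPM, their length-scaled level, and each gene's effective length in bases.

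From these, log2(TPM + 1), the 3 classes and the 20-bin length correction were computed here with Python 3.11.15, numpy 2.4.6, pandas 2.3.3 and scipy 1.17.1, and TMM factors with edgeR 4.0.16 in R 4.3.3. Intervals of folds are exact (Clopper-Pearson) at 95% from rounded counts and cover counting error only, and 0 counts were set to 3. The calling rule was tried on simulated libraries drawn from cortex, with set changes in some genes and otherwise counting error alone. These held no length trend and no spread between libraries, so they do not test the calls against either. Gene coordinates and transcript parts came from GENCODE M21, promoters from RefSeq (GRCm38.p6). Named genes were, per list, up to 4 with the largest ratio in each direction among those called and up to 4 kept with the highest TPM in neuron, the 15 leading genes overall per direction with at least 20 counts, and the extremes per length class. The members and lists were chosen with earlier results of these data known. Alternatives tried were 0.1 or 5 TPM added, a minimum of 1 TPM, 3 other scalings, removal of the length trend, TPM without ribosomal protein genes, thinned counts, either tissue left out, and, added after seeing the data, protein-coding genes of at least 200 bases and 20 counts. A few genes that met this rule or stood on the lists by name are not reported here.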

Additional observations from a re-analysis of the deposited data

How the results depend on the processing

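No count or median below reversed its direction under the alternatives run. The 243 genes higher in neuron were 393 with TMM factors of the counts, 864 with those of the TPM, 591 as CPM and 154 among protein-coding genes of at least 200 bases and 20 counts. The 2431 lower genes were 1201 with 5 TPM added, 914 with TMM scaling of the TPM, 1316 as CPM and 633 with the length trend removed. Genes kept in neuron numbered 6530 in place of 4330 at a minimum of 1 TPM. For the neuronal lists, higher genes (2) were 7 with TMM factors of the counts, 13 with those of the TPM, 11 as CPM, 7 with the length trend removed, 5 without ribosomal protein genes and 4 to 9 with 1 tissue left out (9 without cortex, 4 without hippocampus). Lower neuronal genes (143) were 53 with TMM factors of the TPM, 65 as CPM and 30 with the length trend removed, and kept ones (149) were 228, 235 and 258 in that order. The median of all tested genes (-1.05) and that of the neuronal lists (-1.54) were -0.90 and -1.39 with 5 TPM added, -0.70 and -1.21 with TMM factors of the counts, -0.01 and -0.59 with those of the TPM, -0.29 and -0.72 as CPM, 0.00 and -0.02 with the length trend removed, and -0.87 and -1.33 without ribosomal protein genes. The cause was not tested. Of 259 named genes, 50 lost their call with the length trend removed, 16 with 5 TPM added and 28 each as CPM and with TMM scaling of the TPM. The 259 include kept genes, which had no call to lose, so the share among called genes is larger. With the length trend removed, 5 named genes without a call gained 1. No paired analysis was possible because each group has 1 library. At this depth, levels under about 0.485 TPM in neuron on 2000 bases rest on fewer than 3 counts.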

Other observations

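A few leading higher genes of the neuron library belonged to none of the lists named at the start. Cox6a2, a subunit of cytochrome oxidase, had 321 TPM in neuron, 15.1 in cortex and 5.30 in hippocampus, 21.3-fold higher (95% exact interval 13.1 to 36.8, counting error only). Cox6a2 stood on the oxidative phosphorylation list added after the data were seen, and was higher with the length trend removed too. Gipr, the receptor of a gut hormone that promotes insulin release, had 61.8 TPM in neuron, 1.61 in cortex and 2.35 in hippocampus, 26.3-fold higher (11.96 to 72.3). Both tissues were low for these 2 genes and neuron was the high library. Of 15 measured genes of cerebellar granule and Purkinje neurons, 4 were tested, of which 1 was lower and 2 kept. Itpr1, a calcium release channel on that list which forebrain neurons express too, had 6.38 TPM in neuron, 198 in cortex and 144 in hippocampus, 22.6-fold lower (19.5 to 26.3), and this call was lost with the length trend removed.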
